A study of Sus scrofa with 10 samples.

Results

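Prohormone processing and granin genes were followed in the hypothalamus of pigs that differ in growth and fatness. The genes were chosen by name: the convertases PCSK1 and PCSK2, CPE, PAM, the secretogranins SCG2, SCG3 and SCG5, the chromogranins CHGA and CHGB, and VGF. The file listed 9 of these 10 names among its 25009 gene rows, each on 1 row. PCSK1 was not listed under that name. Its row (ENSSSCG00000014169) carries the older protein name PC1/3 and was matched to PCSK1 through its identifier, so it is described beside the 9 and kept out of their counts unless stated. RNA of 10 pigs of an Iberian x Landrace backcross was sequenced, 5 with high and 5 with low growth and fatness, called high-growth and low-growth pigs here. The age and sex of the animals are not given in the sources used here. Each group of 5 pigs is represented by 1 FPKM value per gene (fragments per length of transcript and per size of library, a scale on which genes can be compared) with a lower and an upper bound, so no value per animal was at hand and no test across animals was made. Bounds stand in parentheses below. The labels and headers state neither their confidence level nor how the 5 animals were combined, so it is unknown whether the bounds carry the spread between animals. Single animals were not analysed here.

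Neuropeptides are made as long inactive precursors and are cut to their active form inside dense core secretory granules. The convertases PCSK1 and PCSK2 cut after pairs of basic residues, the carboxypeptidase CPE removes the basic residues left at the end, and PAM turns a terminal glycine into an amide, which many hypothalamic peptides need for activity. SCG5, also called 7B2, accompanies the PCSK2 precursor to the granule. Granins are acidic proteins stored with the peptides, help form the granule, and are themselves cut into peptides. Mutations of PCSK1 or CPE cause obesity in people and mice, which ties the group to the question of which hypothalamic genes differ between pigs unlike in fatness.

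On the deposited values, the levels of these genes were close to each other in high-growth and low-growth pigs, which did not hold under each scaling. None of the 9 genes had intervals that stayed apart (0 of 9, where 0.458% of the 15281 tested rows did), and 0 of 9 differed by 1.5-fold or more (9.96% of tested rows). A row was tested where its mean over both groups was at least 1 FPKM and the authors gave an estimate in both groups, and all 9 genes and the PCSK1 row passed. The largest FPKM ratio among the 9 was 1.26, for VGF, the only one of them to reach a ratio of 5 to 4 on the deposited values (29.2% of tested rows). The largest ratio was 1.37 after median-of-ratios scaling, again for VGF, and 1.47 after quantile normalization, for SCG2. The median difference of the 9 genes was 0.01 on the log2(FPKM + 1) scale (high minus low), and that of all tested rows was -0.10. These counts describe 2 group values, and 9 genes are too few for a count of 0 to stand apart from those shares. The counts do not show that the groups are alike, since the bounds are wide. Taking the lower bound of the high group over the upper bound of the low group, and the reverse, the high-to-low ratio could lie as low as 0.43 to 0.55 and as high as 1.85 to 3.85, depending on the gene.

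**Figure D1:**
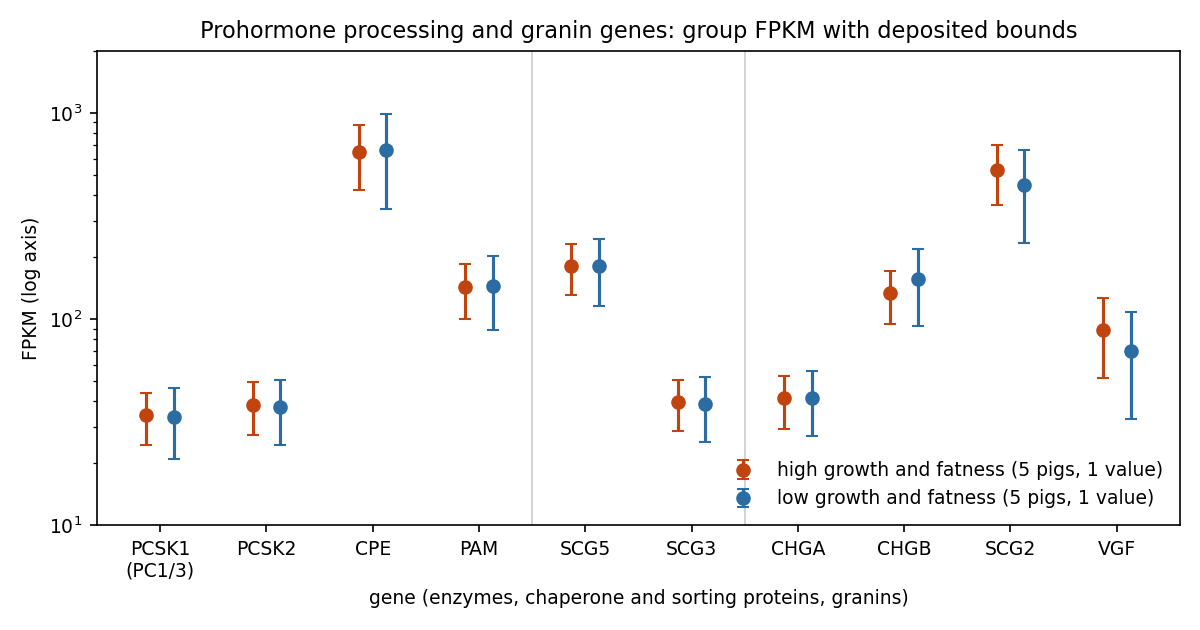
FPKM on a log axis for each gene in high-growth pigs (orange) and the low group (blue), with 1 value for 5 pigs and bars from the deposited lower to the upper bound. The bars of both groups overlap for all 10 genes, and CPE and SCG2 stand above the others.

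PCSK2, the convertase that completes most neuropeptide cuts, was at 38.5 FPKM (27.4 to 49.5) in high-growth pigs and 37.7 FPKM (24.7 to 50.7) in low-growth pigs. The PCSK1 row, the convertase that makes the early cuts, had 34.2 FPKM (24.6 to 43.8) against 33.6 FPKM (21.0 to 46.2). Both pairs of intervals overlapped, with log2 differences of 0.03 for each, which became 0.14 for each after median-of-ratios scaling and 0.19 for each after quantile normalization. The level of PCSK2 over that of PCSK1 was 1.12 in high-growth pigs and 1.12 in low-growth pigs. A ratio of 2 genes within a group is untouched by a scaling factor common to the group, so median-of-ratios scaling leaves this one as it is. Quantile normalization is not such a factor and can move a ratio within a group. On build Sscrofa10.2, PCSK2 (ENSSSCG00000007083) spans chromosome 17 from 29095048 to 29329854, and the PCSK1 row lies on the unplaced scaffold GL895717.1 (69562 to 112481).

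CPE, the carboxypeptidase that trims the cut peptides, had the highest level of the group, at 648 FPKM (422 to 873) in high-growth pigs and 661 FPKM (340 to 982) in low-growth pigs. It ranked 55th among tested rows in high-growth pigs and 84th in low-growth pigs, and made up 34.5% and 36.5% of the summed FPKM of the 10 genes. Its log2 difference was -0.03, which turned to 0.09 after median-of-ratios scaling and to 0.37 after quantile normalization. PAM, the amidating enzyme, had 143 FPKM (100 to 185) against 145 FPKM (89.0 to 202), a log2 difference of -0.03 that turned to 0.09 and 0.16 under the same scalings. On the deposited values, CPE stood at 4.53 times PAM in high-growth pigs and 4.54 times in low-growth pigs. CPE (ENSSSCG00000008854) lies on chromosome 8 (45395481 to 45618352) and PAM (ENSSSCG00000014184) on chromosome 2 (112397803 to 112553942).

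The 4 enzymes, PCSK1 included, were thus each within 1.1-fold between the groups on the deposited values, at FPKM ratios (high over low) of 1.02 for PCSK1, 1.02 for PCSK2, 0.980 for CPE and 0.982 for PAM.

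SCG5, the PCSK2 chaperone, was at 181 FPKM (130 to 232) in high-growth pigs and 180 FPKM (116 to 244) in low-growth pigs, a log2 difference of 0.01. It was 4.71 times as high as PCSK2 in high-growth pigs and 4.77 times in low-growth pigs. SCG3, a granin-like protein that tethers CHGA to the cholesterol-rich granule membrane, was at 39.8 FPKM (28.7 to 50.9) against 38.8 FPKM (25.4 to 52.2), a log2 difference of 0.03. The intervals overlapped for both. After median-of-ratios scaling the differences were 0.13 for SCG5 and 0.15 for SCG3, and after quantile normalization 0.25 and 0.20. SCG5 (ENSSSCG00000004807) lies on chromosome 1 (152695780 to 152712187), as does SCG3 (ENSSSCG00000004630, 133087518 to 133181070).

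The granins proper differed more among themselves. CHGA, a granin also used as a general marker of neuroendocrine cells, was at 41.3 FPKM (29.4 to 53.2) in high-growth pigs and 41.5 FPKM (27.0 to 56.0) in low-growth pigs, a log2 difference of -0.01 that turned to 0.11 after median-of-ratios scaling and 0.16 after quantile normalization. CHGB had 133 FPKM (94.6 to 172) against 156 FPKM (93.0 to 219), the lowest log2 difference of the 10 genes at -0.22, and stayed below 0 after either scaling (-0.11 and -0.03). SCG2, the precursor of secretoneurin, was at 528 FPKM (357 to 698) against 446 FPKM (233 to 660), a log2 difference of 0.24 that became 0.36 and 0.55 under the same scalings. VGF, whose peptides take part in energy balance, was at 88.8 FPKM (51.7 to 126) against 70.4 FPKM (32.7 to 108), a log2 difference of 0.33 that became 0.45 and 0.53. The values of SCG2 and VGF were higher in high-growth pigs and that of CHGB in low-growth pigs, but the intervals of both groups overlapped for each of the 3. The FPKM ratio, in either direction, was 1.17 for CHGB, 1.18 for SCG2 and 1.26 for VGF. Rows within 1.2-fold of their mean levels had median ratios of 1.21, 1.27 and 1.18. On the deposited values and without regard to direction, CHGB and SCG2 thus differed less than the typical row of their level, and VGF more. Direction matters here, since only 16.7% of rows averaging at least 30 FPKM had the higher value in high-growth pigs, as SCG2 and VGF did. The medians of neighbouring rows were not computed after scaling, where the differences of SCG2 and VGF grew.

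Set against each other within a group, SCG2 was 3.96 times as high as CHGB in high-growth pigs and 2.86 times in low-growth pigs. SCG2 over CHGA was 12.8 against 10.8, and CHGB over CHGA was 3.22 against 3.76. Relative to CHGA, SCG2 was thus higher in high-growth pigs and CHGB higher in low-growth pigs. Whether these ratios differ between animals of the groups was not tested.

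The rows of VGF and SCG2 need care. The VGF row (ENSSSCG00000022576) covers only 249 bases of the unplaced scaffold GL894574.1 (38769 to 39017), where the nearest annotated gene is AP1S1. The SCG2 row (ENSSSCG00000023032) covers 2298 bases of the unplaced scaffold GL894571.1 (2663 to 4960). Among the 9 genes these were the only rows off the assembled chromosomes, and they gave the 2 highest differences. Without them, 3 of 7 genes had the higher value in high-growth pigs and the median difference was -0.01. CHGA (ENSSSCG00000002456) lies on chromosome 7 (120954018 to 120966278) and CHGB (ENSSSCG00000007045) on chromosome 17 (15800454 to 15870087), the chromosome that also carries PCSK2.

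**Figure D2:**
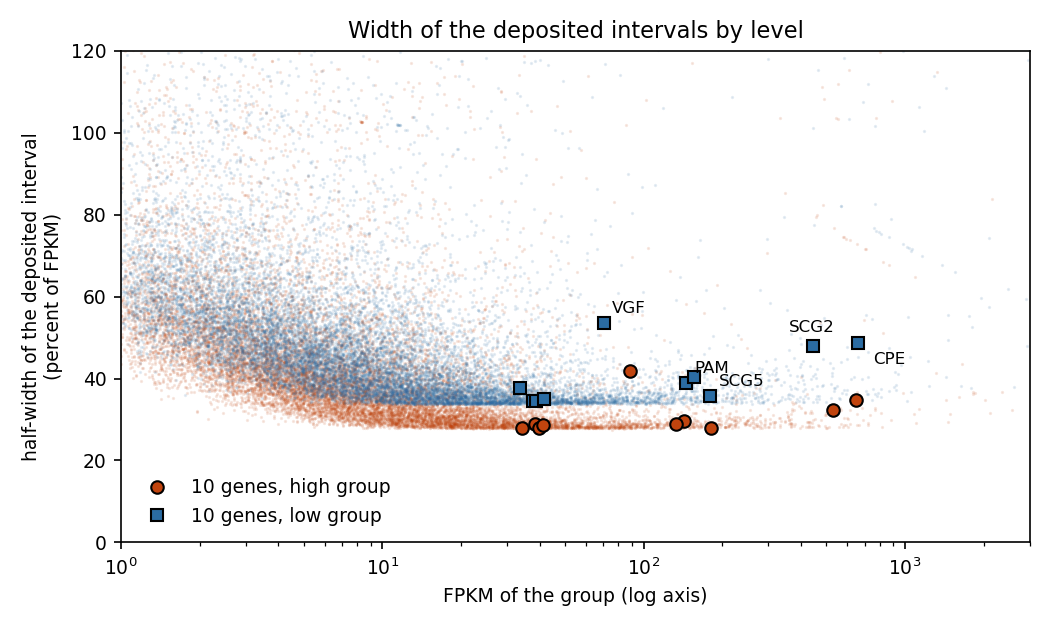
Half-width of the deposited interval in percent of the FPKM value, by FPKM on a log axis. Small dots are tested rows, large symbols the 10 genes in high-growth pigs (orange circles) and the low group (blue squares). All 10 genes have wider intervals in low-growth pigs, as tested rows do at the median, and VGF lies above most rows of its level.

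The width of the intervals set the precision of each value. The half-width of the interval ran from 27.9% (SCG3) to 41.8% (VGF) of the value in high-growth pigs and from 34.5% (SCG3) to 53.5% (VGF) in low-growth pigs, and it was wider in low-growth pigs for all 10 genes. This is not particular to them, as the median half-width of all tested rows was 39.3% in high-growth pigs and 45.1% in low-growth pigs. Among the 10 genes, VGF was the widest in both groups. Rows within 1.2-fold of its mean level had a median of 28.9% in high-growth pigs and 35.4% in low-growth pigs. CPE (34.8% and 48.6%) and SCG2 (32.4% and 47.8%) were also wider than PCSK2, SCG3 and CHGA, which have lower levels. Rows within 1.2-fold of their mean levels had medians of 32.7% and 47.7% for CPE and 30.7% and 40.9% for SCG2. The width of CPE was thus near that of rows at its level.

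The order of the levels was nearly shared. From the top it ran CPE, SCG2, SCG5, PAM, CHGB, VGF, CHGA, SCG3, PCSK2 and PCSK1 in high-growth pigs. PAM and CHGB changed places in low-growth pigs. Neighbours in this order had overlapping intervals at each step in low-growth pigs. In the high group the exception was the step from SCG2 to SCG5, where the lower bound of SCG2 (357 FPKM) was above the upper bound of SCG5 (232 FPKM). CPE and SCG2 together held 62.7% of the summed FPKM of the 10 genes in high-growth pigs and 61.2% in low-growth pigs.

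**Figure D3:**
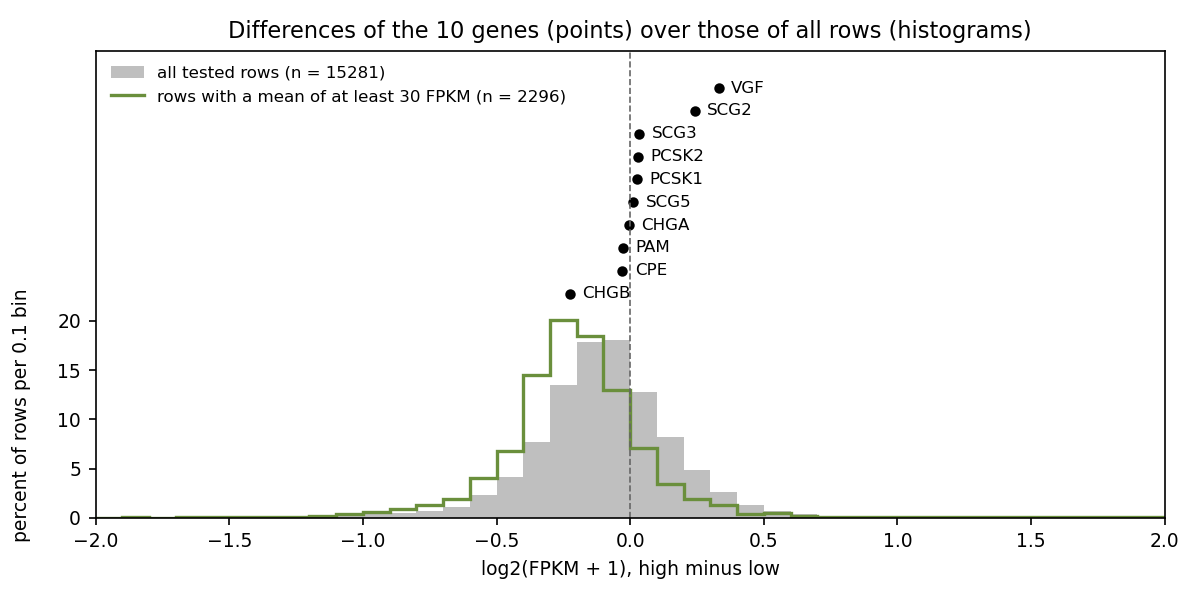
Histograms of the difference of log2(FPKM + 1), high minus low, in percent of rows per bin, for all 15281 tested rows (grey) and the 2296 rows averaging at least 30 FPKM (green line). The 10 genes are black points at their own differences and their height has no meaning. They run from -0.22 (CHGB) to 0.33 (VGF).

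Tested rows as a whole leaned toward the low group, and abundant rows more so. Of the 9 genes, 5 had the higher value in high-growth pigs, where 32.3% of all tested rows and 16.7% of the 2296 rows averaging at least 30 FPKM did. The median difference of those abundant rows was -0.21, beside 0.01 for the 9 genes. Median-of-ratios scaling moved the high group by 0.12 relative to the low group. After it, 8 of 9 genes had the higher value in high-growth pigs, where 50.1% of all rows and 31.4% of abundant rows did, and the median of the 9 was 0.13. After quantile normalization it was also 8 of 9, beside 49.3% and 45.9%, with a median of 0.20. CPE, PAM and CHGA were the genes that turned. Of the 9 genes, 6 were within 1.1-fold between the groups (27.0% of abundant rows), a count that became 5 after median-of-ratios scaling (42.8%) and 1 after quantile normalization (50.7%). Closeness to an equal level therefore holds for the FPKM values as deposited and not for each scaling.

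Other genes of the pathway were taken from lists. Counts in these lists stand beside the shares over all tested rows. Of those rows, 32.3% had the higher value in high-growth pigs, 9.96% were past 1.5-fold and 0.458% had intervals apart. Of 7 other proprotein convertases, 5 rows were tested, 2 with the higher value in high-growth pigs and 3 in low-growth pigs, and 1 was past 1.5-fold. That was PCSK6, a convertase of growth factor precursors, at 2.51 FPKM (1.09 to 3.92) against 3.80 FPKM (1.56 to 6.05). FURIN, the convertase of the constitutive secretory route, was at 7.92 against 8.80 FPKM, PCSK7 at 4.31 against 4.18 FPKM and PCSK5 at 1.54 against 1.35 FPKM, each with overlapping intervals. On this per-length scale PCSK2 was 4.85 times as high as FURIN in high-growth pigs and 4.28 times in low-growth pigs. The granule convertases were thus above the constitutive ones in both groups.

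Among the relatives of CPE, the 5 tested rows all had the higher value in low-growth pigs, 3 were past 1.5-fold and 2 had intervals that stayed apart. AEBP1, a matrix-associated relative, was at 2.88 FPKM (1.76 to 3.998) in high-growth pigs and 14.5 FPKM (7.34 to 21.6) in low-growth pigs. For CPXM1 the values were 0.697 FPKM (0.286 to 1.11) and 3.53 FPKM (1.56 to 5.502). CPXM2 had 6.27 FPKM (3.996 to 8.55) against 12.98 FPKM (8.05 to 17.9). CPD, which trims peptides in the Golgi, was at 21.7 FPKM (15.6 to 27.7) against 28.5 FPKM (18.3 to 38.8), so CPE was 29.9 times as high as CPD in high-growth pigs and 23.2 times in low-growth pigs. Markers of fibroblasts, mural cells and meninges were higher in low-growth pigs in 10 of 10 tested rows, with a summed level of 75.9 against 232 FPKM and no marker at 0. These rows stand for 8 genes, since COL1A1 and COL1A2 each have a further row, which the sum also counts. PDGFRB was nearly equal, at 2.51 against 2.63 FPKM. The part of these markers in the values of AEBP1, CPXM1 and CPXM2 was not tested.

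The other processing enzymes and inhibitors had 18 tested rows. Of these, 5 had the higher value in high-growth pigs (32.3% of all tested rows did) and 13 in low-growth pigs. Past 1.5-fold were 2 (9.96% of all tested rows), CTSH and MME, both higher in low-growth pigs. Both counts were near the shares over all rows. PCSK1N, which encodes the PCSK1 inhibitor proSAAS, was at 19.2 FPKM (12.1 to 26.4) in high-growth pigs and 14.5 FPKM (8.08 to 20.8) in low-growth pigs. The level of PCSK1 over that of its inhibitor was 1.78 in high-growth pigs and 2.32 in low-growth pigs. The cathepsin CTSH had 2.36 FPKM (1.13 to 3.60) against 5.11 FPKM (1.34 to 8.88), and MME, or neprilysin, which degrades peptides outside the cell, at 3.53 FPKM (1.87 to 5.18) against 5.52 FPKM (2.98 to 8.06). QPCT, which forms the N-terminal pyroglutamate of peptides such as TRH, was matched by identifier and was at 15.3 against 15.1 FPKM.

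Genes of granule formation and release had a median of 0.07 over 22 tested rows, 15 with the higher value in high-growth pigs and 7 in low-growth pigs. DOC2A, a calcium sensor of exocytosis, was past 1.5-fold at 13.1 FPKM (6.22 to 20.0) against 8.37 FPKM (2.60 to 14.2). BAIAP3, a Munc13 relative in dense core vesicle traffic, had 50.0 FPKM (35.4 to 64.7) against 34.3 FPKM (21.1 to 47.4), and the granule GTPase RAB26 at 8.25 against 6.45 FPKM. All 22 pairs of intervals overlapped. Of the 9 genes for the copper supply and cytosolic partners of PAM, 0 were past 1.5-fold. KALRN, a cytosolic partner of PAM, was at 3.66 against 2.46 FPKM, the copper pump ATP7A at 2.97 against 2.50 FPKM and RASSF9, another PAM partner, at 1.26 against 1.75 FPKM.

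The precursors that these enzymes act on included higher values in either group. Of 28 tested precursor rows, 13 had the higher value in high-growth pigs and 15 in low-growth pigs, and 8 were past 1.5-fold (9.96% of all tested rows), 5 and 3, with 0 pairs of intervals apart. PMCH, the precursor of melanin-concentrating hormone, was at 167 FPKM (120 to 215) in high-growth pigs and 91.8 FPKM (51.5 to 132) in low-growth pigs. CARTPT was at 115 against 70.2 FPKM, OXT at 55.5 against 34.7 FPKM and the orexin precursor HCRT at 4.16 against 1.78 FPKM. KISS1, NPY and VIP, named because they complete the count and chosen after their values were seen, were at 2.74 against 1.21, 7.25 against 11.9 and 2.20 against 4.22 FPKM. The row listed as LHRH, matched to GNRH1 by identifier, was at 4.70 against 9.74 FPKM. HCRT, KISS1, NPY, VIP and GNRH1 each averaged less than any of the 4 enzymes, and their half-widths ran from 50.3% (NPY) to 105% (VIP) of the value, so these ratios are less precise than those of the enzymes. AVP was at 472 against 354 FPKM, SST at 156 against 114 FPKM and POMC at 84.0 against 110 FPKM, all within 1.5-fold. The summed level of tested precursors was 1559 FPKM in high-growth pigs and 1339 FPKM in low-growth pigs, a ratio of 1.16. It was 1.04 for the 9 genes and 0.825 for all tested rows. The precursor sum rests on its most abundant rows, and the median precursor difference was -0.05. AVP, the highest precursor, had half-widths of 53.5% in high-growth pigs and 56.7% in low-growth pigs.

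**Figure D4:**
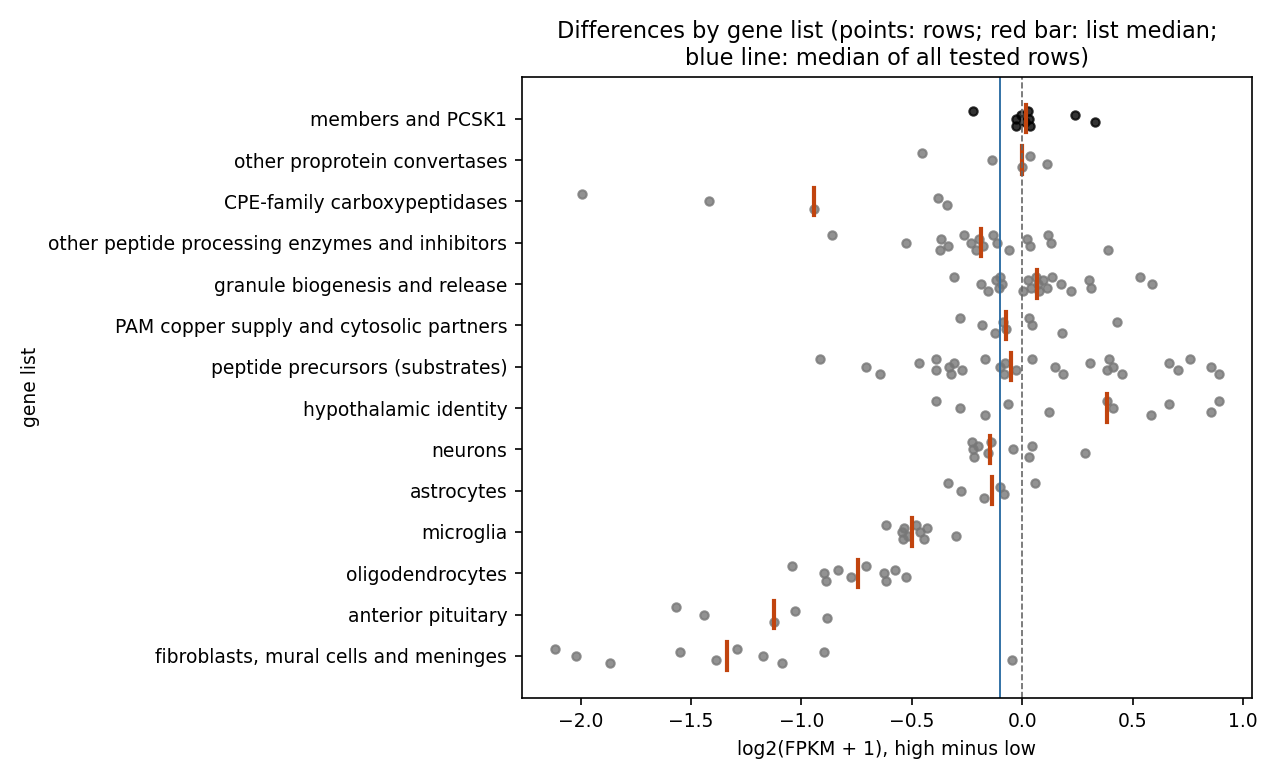
Difference of log2(FPKM + 1), high minus low, for each tested row (points) of each list, with the list median (red bar) and the median of all tested rows (blue line at -0.10). The 10 genes lie between -0.22 and 0.33, while precursors run from -0.92 to 0.89 and pituitary, myelin and fibroblast markers lie below 0.

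The tissue held the peptides that define the hypothalamus, and it also held pituitary transcripts. Of 14 hypothalamic identity genes, 12 were matched and 11 tested, 7 with the higher value in high-growth pigs, and their median was 0.38. SIM1 was below the filter on level. AVP, OXT, HCRT, PMCH, POMC and AGRP are also rows of the precursor list, so these lists overlap. Anterior pituitary cells also express granins and convertases. Their hormone genes were higher in low-growth pigs in 5 of 5 tested rows, with a summed level of 459 against 982 FPKM and a median of -1.12. PRL was at 279 FPKM (174 to 384) against 570 FPKM (102 to 1039), GH at 157 against 344 FPKM, CGA at 15.5 against 43.7 FPKM and LHB at 6.40 against 21.0 FPKM. Their part in the values of the granins and convertases was not tested. Neuronal markers had a median of -0.15 over 10 tested rows with 0 past 1.5-fold, astrocyte markers -0.14, microglial markers -0.50 and oligodendrocyte markers -0.74. In bulk tissue, fewer cells of a type and less RNA per cell cannot be told apart.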

How the data were processed

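The authors deposited 1 table with 25009 gene rows, which gives, per the file headers, 1 FPKM value per gene and group with a lower bound, an upper bound and a status. Build Sscrofa10.2 and the tools Cufflinks 2.0.2, TopHat2 2.0.5, Bowtie2, Trim Galore, CASAVA and FastQC are listed in the submitters' processing notes, with no role or setting. The bounds are confidence bounds in the unit of the FPKM, per the file headers, and are another quantity than a level. Read counts were not used, and depth per animal is therefore unknown. Libraries shared lanes, per the labels' protocols, and the lane of each animal is not stated.

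Rows without an estimate in both groups (58) were left out, and those averaging at least 1 FPKM (15281) were tested. Here "tested" means compared by value: no p-value was computed, because each group has 1 value. Differences are of log2(FPKM + 1), high minus low, a scale that understates changes of low genes. A row was called where the intervals did not overlap, or where the FPKM ratio reached 1.5. Genes were matched by the file's name, otherwise by identifier. Starts, counted from 0 in the file, are given counted from 1. Python 3.11.15 and pandas 2.3.3 were used, and the calculations were tested on simulated data. Alternatives were other scalings, pseudocounts, filters and ratios.

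The members and lists were chosen with earlier results of these data known. Named genes are all members, per list the 3 rows with the largest difference and rows with intervals apart, and a fixed set. For cell type lists whose values are summarised, not all such rows are named.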

Additional observations from a re-analysis of the deposited data

How the results depend on the processing

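No paired analysis was possible because the table used here holds 1 column per group of 5 pigs and no value per animal was analysed. Leave-one-out fits could not be run for the same reason. The count of the 9 genes with intervals apart stayed at 0 under each alternative tried. The count past 1.5-fold stayed at 0 except that a ratio of 5 to 4 gave 1 (VGF), where 29.2% of tested rows passed. The count with the higher value in the high group went from 5 of 9 to 8 of 9 after median-of-ratios scaling and 8 of 9 after quantile normalization, and to 3 of 7 without VGF and SCG2 on unplaced scaffolds. Including PCSK1 it was 6 of 10. The last 2 settings were chosen after seeing the data. The median of the 9 was 0.01 as reported, 0.13 and 0.20 after the scalings, 0.04 as a mean and -0.01 without VGF and SCG2. Pseudocounts of 0.1 and 0.5, no filter and a filter at 5 FPKM left it at 0.01. Scaling acts on all rows of a group, and why the groups differ in level was not tested.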
